A study of Homo sapiens with 11 samples.

Results

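Very large chromatin domains were examined in cultured cells of 3 human lines from lung, the small cell lung carcinoma lines DMS153 and H209 and the noncancerous lung fibroblast line MRC5. The domains were chosen by their measured length, 1 Mb or more in the list of their line, and chromosome Y was left out. The rule took 1063 of 12696 domains in all. These were 240 of 5023 domains in DMS153, 429 of 3975 in H209 and 394 of 3698 in MRC5. The other 11633 domains are called the shorter domains here. Each list comes from 1 Hi-C library per line, made from crosslinked cells cut with the enzyme MboI. RNA-seq gave an FPKM value for each listed gene (RNA fragments relative to transcript length and to all fragments mapped in the library) in 3 DMS153, 2 H209 and 3 MRC5 libraries. All lines were kept in the same RPMI 1640 medium with serum, and the labels name no treatment. Each group is 1 line in culture and stands for that line alone. The RNA libraries are numbered, but no label says that they came from separate cultures, so the spread that p-values measure may be technical. RNA libraries titled DM153 carry DMS153 as their cell line and were treated as that line.

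A chromatin domain, often called a topologically associating domain, is a stretch of a chromosome whose parts touch one another more often than they touch the sequence outside it. Boundaries between domains often lie at active genes and at sites bound by CTCF and cohesin, so gene-poor stretches of a chromosome tend to be cut less often. Long domains in human cells are known to include gene deserts, very long neuronal genes and the surroundings of single developmental regulators whose enhancers lie far from them.

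Promoters of 7 genes that lie in very large domains are shown because they cover the range of what the domains hold. SOX2, NKX2-1, ADCYAP1 and CGA were expressed in both carcinoma lines and at or near 0 in MRC5, COL12A1 and FST were high in MRC5, and RGS21 was silent in all 3 lines. Each sequence is the 250 bases before the start of the gene, written 5′ to 3′ along the strand of the gene, from RefSeq on build GRCh38.p14. Capitals mark each CG pair. The windows are chr3:181711675-181711924 on the plus strand for SOX2, chr14:36520233-36520482 on the minus strand for NKX2-1 and chr18:904621-904870 on the plus strand for ADCYAP1. They are chr6:87095107-87095356 on the minus strand for CGA, chr6:75206054-75206303 on the minus strand for COL12A1, chr5:53480379-53480628 on the plus strand for FST and chr1:192316742-192316991 on the plus strand for RGS21.
SOX2: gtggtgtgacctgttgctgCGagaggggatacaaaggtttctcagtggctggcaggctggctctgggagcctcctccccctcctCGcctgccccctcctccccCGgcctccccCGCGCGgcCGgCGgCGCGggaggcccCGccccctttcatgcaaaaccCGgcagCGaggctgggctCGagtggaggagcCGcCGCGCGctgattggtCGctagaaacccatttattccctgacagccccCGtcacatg
NKX2-1: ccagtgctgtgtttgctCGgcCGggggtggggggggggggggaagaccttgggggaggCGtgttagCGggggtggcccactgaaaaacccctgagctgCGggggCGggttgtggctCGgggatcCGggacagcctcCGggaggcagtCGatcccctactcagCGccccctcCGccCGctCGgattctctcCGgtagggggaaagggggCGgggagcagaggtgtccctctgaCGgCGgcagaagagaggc
ADCYAP1: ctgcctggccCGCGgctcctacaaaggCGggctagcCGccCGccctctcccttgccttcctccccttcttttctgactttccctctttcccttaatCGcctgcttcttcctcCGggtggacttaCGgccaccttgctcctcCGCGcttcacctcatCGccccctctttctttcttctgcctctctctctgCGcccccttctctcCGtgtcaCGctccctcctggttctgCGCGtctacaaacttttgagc
CGA: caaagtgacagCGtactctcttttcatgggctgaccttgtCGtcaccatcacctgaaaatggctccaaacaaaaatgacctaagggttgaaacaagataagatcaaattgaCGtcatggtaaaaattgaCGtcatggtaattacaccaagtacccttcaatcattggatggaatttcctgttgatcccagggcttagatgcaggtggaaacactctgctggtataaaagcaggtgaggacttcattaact
COL12A1: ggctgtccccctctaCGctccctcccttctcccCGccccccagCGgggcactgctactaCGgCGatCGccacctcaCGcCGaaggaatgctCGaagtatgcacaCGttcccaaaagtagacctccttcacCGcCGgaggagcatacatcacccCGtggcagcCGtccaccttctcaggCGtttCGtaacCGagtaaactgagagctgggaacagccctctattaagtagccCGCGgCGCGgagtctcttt
FST: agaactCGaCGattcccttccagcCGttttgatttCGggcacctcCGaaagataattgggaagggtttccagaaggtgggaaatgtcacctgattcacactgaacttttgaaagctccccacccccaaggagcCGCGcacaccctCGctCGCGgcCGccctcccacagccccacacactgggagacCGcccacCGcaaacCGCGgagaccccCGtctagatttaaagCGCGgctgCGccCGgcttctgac
RGS21: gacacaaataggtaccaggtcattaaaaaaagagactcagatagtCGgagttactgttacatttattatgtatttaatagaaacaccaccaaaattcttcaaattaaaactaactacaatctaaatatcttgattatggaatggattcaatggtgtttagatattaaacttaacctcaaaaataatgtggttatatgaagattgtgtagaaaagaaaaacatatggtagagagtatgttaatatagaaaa

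The window of COL12A1 held 21 CG pairs, those of SOX2 and FST 20 each, that of NKX2-1 18 and that of ADCYAP1 16. The window of CGA held 4 and that of RGS21 held 1. In these 7 windows the CG pairs were frequent at SOX2, NKX2-1, ADCYAP1, COL12A1 and FST and rare at CGA and RGS21, and GC made up 42% of the bases at CGA and 27.2% at RGS21, against 60% to 70.8% in the other windows.

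Most markers followed the labels of the lines. All 7 neuroendocrine markers checked reached 1 FPKM in DMS153 and in H209 and none did in MRC5. All 7 fibroblast markers did in MRC5, and 2 of 7 in each carcinoma line. In MRC5 2 of 5 epithelial markers, the keratins KRT8 at 22.7 to 25.8 FPKM and KRT18 at 71.4 to 80.2 FPKM, also reached 1 FPKM, as did all 5 in each carcinoma line. In MRC5 1 of 5 leukocyte markers and 1 of 4 erythroid markers reached 1 FPKM. The number of genes at 1 FPKM or more was 13425 to 16580 per library. The files hold no read counts, so the depth of the RNA libraries is unknown. The deposited interval of a gene at 0.1 to 1 FPKM extended by a median of 42.6% to 60.3% of its value to either side, which limits what a value close to 0.1 FPKM can show. Small RNA and mitochondrial genes held 46.3% to 48.9% of the summed FPKM in DMS153, 12.9% to 13.3% in H209 and 11.3% to 12.6% in MRC5. Fewer cells that express a gene and less RNA of it per cell cannot be told apart in these bulk libraries.

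Very large domains made up 4.78% of the domains of DMS153 (95% Wilson interval 4.22% to 5.40%), 10.8% of those of H209 (9.87% to 11.8%) and 10.7% of those of MRC5 (9.70% to 11.7%). The intervals cover counting error only, and with 1 Hi-C library per line the difference between the lines was not tested. In bases, these domains held 333 Mb or 19.5% of all domain bases in DMS153, 613 Mb or 34.6% in H209 and 558 Mb or 33.8% in MRC5. DMS153 had more domains than the other lines and fewer very large ones. The median length over all domains was 240 kb in DMS153 and 300 kb in H209 and in MRC5. Among the very large domains alone it was 1.36 Mb in DMS153, 1.38 Mb in H209 and 1.36 Mb in MRC5. Ends were placed on a 20 kb grid, so these medians were 1 step apart at most. No domain was longer than 2 Mb, and 8 domains of DMS153, 23 of H209 and 19 of MRC5 had that length. Whether a maximum length was set when the domains were called is not given in the sources used here.

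**Figure D1:**
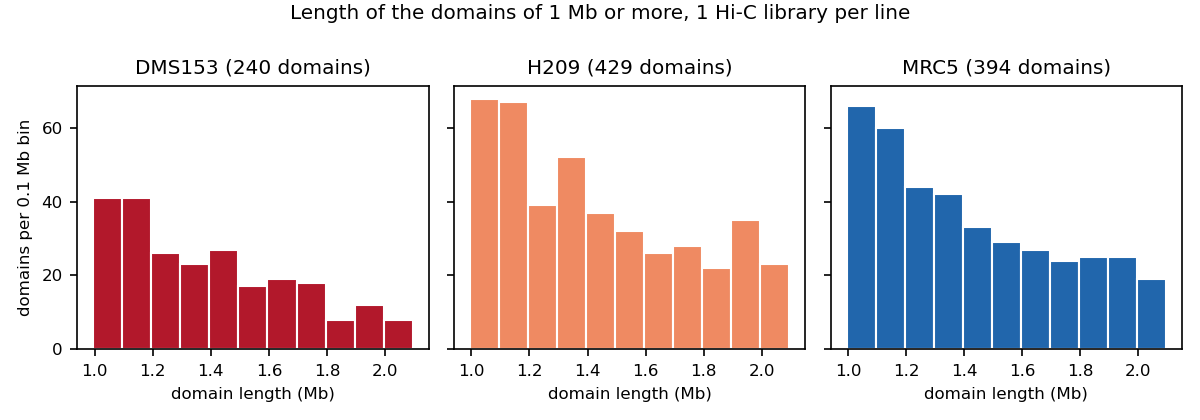
Number of domains of 1 Mb or more (vertical axis) by length in Mb (horizontal axis, bins of 0.1 Mb) for DMS153, H209 and MRC5, 1 Hi-C library per line. The shorter lengths hold more domains than the longer ones, and no domain passes 2 Mb, the length at which 8, 23 and 19 domains of DMS153, H209 and MRC5 lie.

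Domain length was what chose the members, so values at the threshold are given without a test. Just inside it, 10 domains of DMS153, 13 of H209 and 12 of MRC5 were 1.00 Mb long. Just outside it, 13 domains of DMS153, 15 of H209 and 13 of MRC5 were 0.98 Mb long. The counts on both sides were close, and the threshold cuts through a continuous range of lengths. The score deposited with each domain had a median of 2.23 in the very large and 2.22 in the shorter domains of DMS153, 2.19 and 2.1 in H209, and 2.43 and 2.53 in MRC5. It is the authors' value and its meaning is not given in the sources used here.

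The very large domains were spread unevenly over the chromosomes. On chromosome 18, one of the gene-poor chromosomes, they held 33.8% of the domain bases in DMS153, 47.3% in H209 and 44.6% in MRC5. On chromosome 19, the most gene-dense chromosome, they held 4.8%, 11.7% and 13.2%, from 1 domain in DMS153 and 2 each in H209 and MRC5. Chromosome 17 gave 6.43% in DMS153, 16.4% in H209 and 15.5% in MRC5. Copy number of the chromosomes was not examined.

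Overlap between the lines was measured for each domain. A domain had a counterpart when a domain of any length in the other line covered at least 80% of it and was covered by it to at least 80%. It was divided when a boundary of the other line lay 100 kb or more inside both of its ends. Of the DMS153 domains, 188 (78.3%) had a counterpart in H209 and 32 (13.3%) were divided there. In MRC5, 144 of the DMS153 domains (60%) had a counterpart and 67 (27.9%) were divided. Most very large domains of DMS153 were thus found again in both other lines. The H209 domains were found again less often, with 193 (45.0%) in DMS153 and 233 (54.3%) in MRC5. In DMS153, 224 of the H209 domains (52.2%) were divided, and 149 (34.7%) were divided in MRC5. Of the MRC5 domains, 147 (37.3%) had a counterpart in DMS153 and 230 (58.4%) had one in H209. In DMS153 234 of the MRC5 domains (59.4%) were divided, and in H209 131 (33.2%) were. DMS153 was thus the line in which the very large domains of the others were most often divided, and it was also the line with the most domains in its list. MRC5 domains were covered by DMS153 domains over a median of 72.3% of their length, and 40 of them to less than 10%. The part of missing cover in these counts was not tested.

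**Figure D2:**
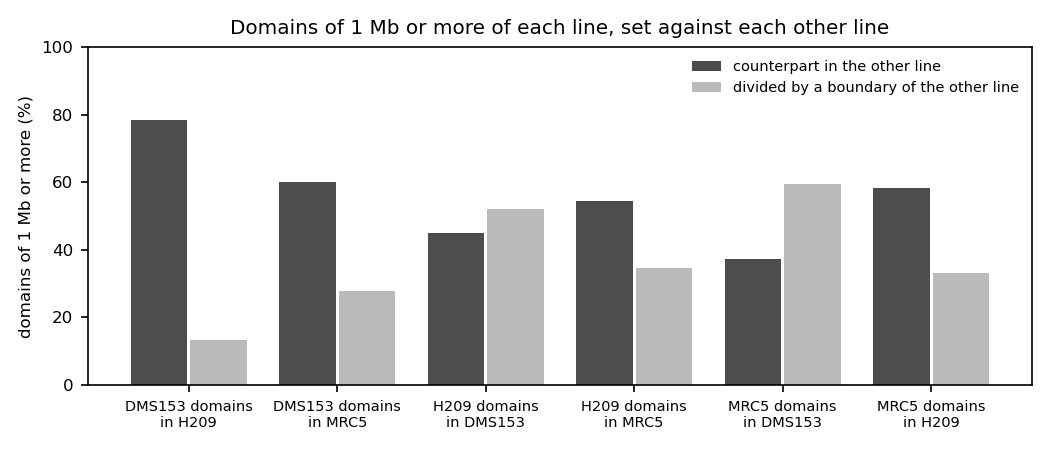
Share (%) of the domains of 1 Mb or more of a line that had a counterpart in another line (dark bars) or were divided by a boundary of that line (light bars), 1 Hi-C library per line. Counterparts are most frequent for DMS153 domains in H209, at 78.3%, and divided domains for MRC5 domains in DMS153, at 59.4%.

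Domains with the same start and the same end numbered 94 between DMS153 and H209, 52 between DMS153 and MRC5 and 81 between H209 and MRC5. Sequence lying in very large domains of both lines came to 284 Mb for DMS153 and H209, 214 Mb for DMS153 and MRC5 and 357 Mb for H209 and MRC5. A set of 122 domains was 1 Mb or longer and had counterparts of that length in all 3 lines, which is 50.8% of the DMS153, 28.4% of the H209 and 31.0% of the MRC5 members. Their MRC5 copies held 1747 listed genes, of which 294 are protein-coding. A gene is called silent here when its mean over the libraries of a line is below 0.1 FPKM. Silent in all 3 lines were 1150 of the 1747 genes (65.8%), and 162 reached 1 FPKM in all 3. The silent share of the 294 protein-coding genes was 16.7% in DMS153, 17.3% in H209 and 30.3% in MRC5.

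Few genes lay in the very large domains, and fewer of them were protein-coding. Genes were assigned by the midpoint of their locus. In DMS153 the very large domains held 10.6 listed genes per Mb and the shorter domains 19.4. In H209 the values were 10.8 and 20.8 per Mb, and in MRC5 11.1 and 21.3. For protein-coding genes the gap was wider, with 1.91 per Mb in the very large and 6.71 in the shorter domains of DMS153, 2.07 and 7.27 in H209, and 2.11 and 7.66 in MRC5. Protein-coding genes made up 18.0% of the listed genes in the very large and 34.5% in the shorter domains of DMS153, 19.1% and 35.0% in H209, and 19.0% and 35.9% in MRC5. The density of protein-coding genes fell from one length class to the next in every line. In MRC5 it was 15.2 per Mb in domains under 200 kb, 8.53 from 200 to 500 kb, 4.47 from 500 kb to 1 Mb, 2.54 from 1 to 1.5 Mb and 1.63 above that. The coding genes in very large domains were longer. Their median locus spanned 48.9 kb in the very large and 32.0 kb in the shorter domains of DMS153, 48.1 and 31.8 kb in H209, and 58.1 and 32.0 kb in MRC5. Loci of 500 kb or more were 8.50% of the coding genes in the very large and 1.72% in the shorter domains of DMS153, 7.97% and 1.36% in H209, and 8.75% and 1.29% in MRC5. A long gene needs a long domain to hold it, so the length of loci is tied to the rule and is given as a description.

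**Figure D3:**
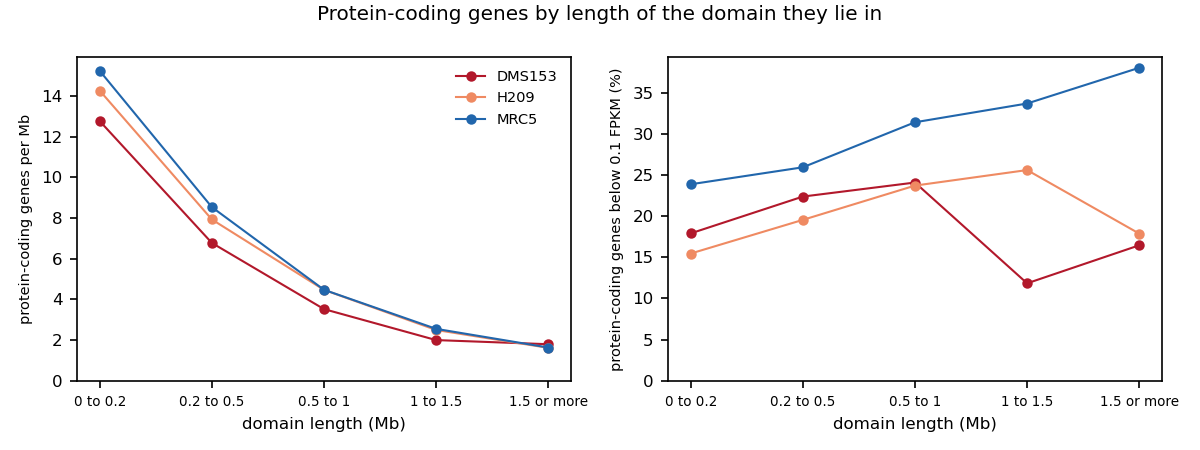
Protein-coding genes per Mb (left) and the share of protein-coding genes below 0.1 FPKM in the line of the domain (right, %), by length of the domain in Mb, for DMS153, H209 and MRC5. Density falls with length in each line, and the silent share in domains of 1.5 Mb or more is 16.5% in DMS153, 17.9% in H209 and 38.1% in MRC5.

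Over all listed genes, silent genes were more frequent in the very large than in the shorter domains of each line. The silent share was 69.8% in the very large and 56.3% in the shorter domains of DMS153, 73.2% and 57.0% in H209, and 80.5% and 63.0% in MRC5. Counted in single libraries, it was 70.1%, 70.5% and 70.3% in the very large domains of DMS153, against 57.0%, 56.6% and 56.5% in the shorter ones. The H209 libraries gave 73.2% and 73.3% in its very large domains and 57.0% and 57.5% in its shorter ones. The MRC5 libraries gave 80.5%, 81.0% and 80.5%, against 63.0%, 63.4% and 63.2%. Very large and shorter domains did not overlap in any library of the line they belong to. The kind of gene differed too. Genes that are not protein-coding in RefSeq, which include genes without a RefSeq match, were 82.0% of the genes in the very large and 65.5% in the shorter domains of DMS153, and 82.1% and 74.9% of them were silent there.

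For protein-coding genes the domain lists of the 3 lines differed in this respect. In DMS153, 13.7% of the coding genes in the very large domains were silent, and 21.2% in the shorter domains. In H209 the shares were 22.7% and 19.6%, and in MRC5 35.3% and 26.8%. In single libraries the share in very large domains minus that in shorter ones was -7.47, -6.89 and -6.79 percentage points in DMS153, 3.06 and 3.61 in H209, and 8.21, 8.54 and 7.96 in MRC5. The sign was thus negative in DMS153 and positive in H209 and MRC5. Each line was measured over its own domains, which hold different genes. Over the DMS153 domains the difference was also negative in the H209 libraries (-5.38 and -5.60) and the MRC5 libraries (-4.12, -4.35 and -4.25). Over the MRC5 domains it was positive in the DMS153 libraries (2.75, 3.82 and 2.68) and the H209 libraries (3.76 and 4.57). H209 domains gave 0.934, 1.11 and 0.864 in DMS153 and 2.61, 2.54 and 2.16 in MRC5. The sign thus went with the domain list and not with the line of the RNA. Olfactory receptor, keratin and taste receptor families were absent from the very large domains of DMS153, and without them the silent share of coding genes was 13.7% in the very large and 19.0% in the shorter domains of DMS153, 19.7% and 17.7% in H209, and 32.7% and 24.9% in MRC5. Among coding genes with a locus of 100 kb or more, 10.4% were silent in the very large and 12.3% in the shorter domains of DMS153, 19.2% and 10.8% in H209, and 30.2% and 17.4% in MRC5.

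**Figure D4:**
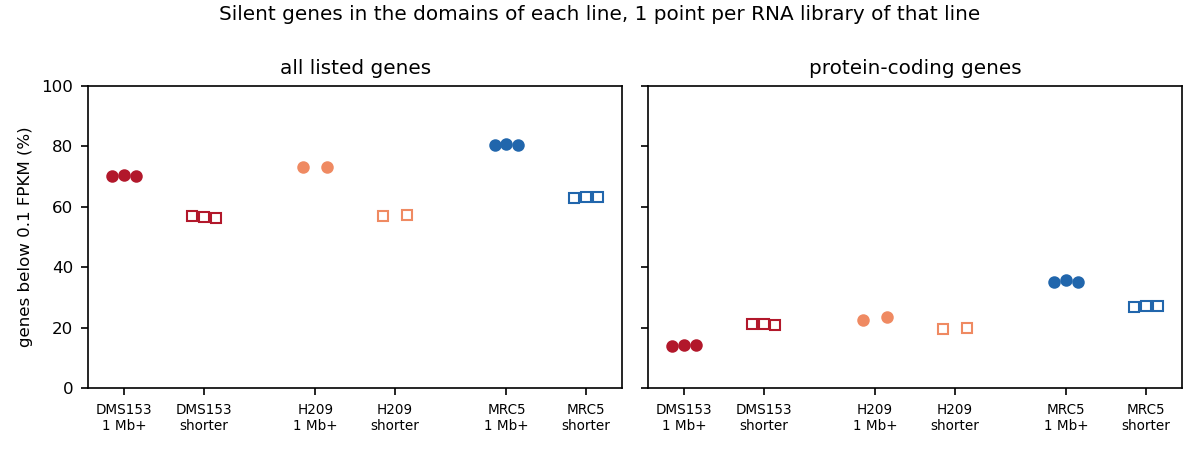
Share of genes below 0.1 FPKM (%) in domains of 1 Mb or more (filled circles) and in shorter domains (open squares) of each line, for all listed genes (left) and protein-coding genes (right), 1 point per RNA library of that line. All listed genes are more often silent in the very large domains of each line, while protein-coding genes are so in H209 and MRC5 and less often silent in those of DMS153.

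The same genes were compared between lines. Over the genes of the very large domains of DMS153, 70.3% ± 0.227 (SD, n = 3) were silent in the DMS153 libraries, against 79.1% ± 0.444 (n = 3) in the MRC5 libraries. Over those of MRC5, 72.4% ± 0.159 were silent in the DMS153 libraries, against 80.7% ± 0.281 in the MRC5 libraries. Over the genes of H209 domains, 73.3% ± 0.0320 (SD, n = 2) were silent in the H209 libraries, against 80% ± 0.248 (n = 3) in the MRC5 libraries. More genes were silent in the fibroblasts whichever line the domains came from, and in shorter domains too, with 56.7% ± 0.281 in the DMS153 libraries and 66.4% ± 0.221 in the MRC5 libraries for shorter domains of DMS153. For these shares of silent genes the exact two-sided permutation test gave p = 0.1 for 3 against 3 libraries and p = 0.2 for 2 against 3, the smallest values these designs allow. The adjusted p over the 16 comparisons was 0.2 in all of them. The excess of silent genes in the very large domains of DMS153 over its shorter ones was 13.6 ± 0.474 percentage points in the DMS153 libraries, against 12.7 ± 0.357 in the MRC5 libraries (exact permutation p = 0.2, n = 3 each). For MRC5 domains it was 17.1 ± 0.270 in the DMS153 libraries, against 17.5 ± 0.160 in the MRC5 libraries (exact permutation p = 0.2, n = 3 each).

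Single domains differed widely in what they held. The median very large domain held 12 listed genes in DMS153 and 13 in H209 and in MRC5, and 2 protein-coding genes in each line. No protein-coding gene lay in 37 of the 240 domains of DMS153, 56 of the 429 of H209 and 30 of the 394 of MRC5, and exactly 1 in 77, 142 and 145. In 30 domains of DMS153, 61 of H209 and 69 of MRC5 all listed genes were silent. At the other end, 15 domains of DMS153, 35 of H209 and 28 of MRC5 held 5 or more protein-coding genes at 1 FPKM or more. The domain with the most genes in DMS153 was chr16:30300000-32039998, with 133 listed and 57 protein-coding genes, of which 44 reached 1 FPKM. The next in DMS153 were chr19:11720000-12799998 with 75 genes, many of them named as zinc finger genes, and chr22:18860000-20339998 with 71. In H209 the domain chr17:38760000-39839998 covered the type I keratin cluster, with 64 protein-coding genes, of which 41 were silent and 8 reached 1 FPKM. In MRC5 the domain chr7:63240000-64979998 held 81 genes, 10 of them protein-coding. The domain with the most listed genes in MRC5, chr14:100840000-102159998, held 140 genes and only 5 protein-coding ones, being rich in small RNA loci.

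The longest domains were poor in genes. Ties among the domains of 2 Mb were ordered by chromosome name and start. The DMS153 domain chr12:86360000-88359998 had the same ends in all 3 lines and held MGAT4C, a glycosyltransferase gene, as its only protein-coding gene. MGAT4C was at 8.75, 7.12 and 9.37 FPKM in DMS153 and 2.00 and 1.46 FPKM in H209, against 0.000263, 0.0330 and 0.0101 FPKM in MRC5. The libraries of the 3 lines did not overlap. In the MRC5 domain chr18:41160000-43159998, SETBP1, a chromatin-associated protein whose gene is mutated in some myeloid neoplasms, was at 10.6, 11 and 10 FPKM in DMS153 and 11.9 and 12.1 FPKM in H209, against 0.279, 0.383 and 0.297 FPKM in MRC5. Its counterparts in the carcinoma lines were also 2 Mb long, and MRC5 stood below them in every library. On chr14:79400000-81399998, also 2 Mb in all lines, NRXN3, a synaptic adhesion molecule, was at 4.98, 4.92 and 5.52 FPKM in DMS153 and 1.29 and 1.15 FPKM in H209, against 1.14, 1.21 and 0.973 FPKM in MRC5, so that H209 and MRC5 overlapped for this gene. DIO2, the deiodinase that activates thyroid hormone, lies in the same domain and was highest in MRC5, with 0.0556, 0.0585 and 0.00483 FPKM in DMS153 and 2.13 and 2.52 FPKM in H209, against 4.49, 4.29 and 4.81 FPKM in MRC5. The MRC5 domain chr1:190420000-192419998 held 15 genes, 2 of them coding, and its only gene at 1 FPKM or more was RGS18, a regulator of G protein signalling, at 1.27, 0.932 and 1.19 FPKM.

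Of the 122 domains shared by all 3 lines, 43 held exactly 1 protein-coding gene and 5 held none. The genes named from them were picked after their values were seen. Of the 43 genes, 1 was silent in all 3 lines and 17 reached 1 FPKM in all 3. At 1 FPKM or more were 30 genes in DMS153, 25 in H209 and 27 in MRC5. Most of these domains therefore enclosed an active gene in at least some of the lines. The domain chr3:181420000-182419998 enclosed SOX2, a transcription factor of stem cells and of many small cell carcinomas, which was at 20.0, 18.9 and 18.0 FPKM in DMS153 and 3.82 and 3.70 FPKM in H209, against 0, 0.0168 and 0.0417 FPKM in MRC5. The 3 lines did not overlap. The log2 fold change of FPKM + 1 was 4.29 ± 0.0719 (SE) in DMS153 against MRC5 (limma, Benjamini-Hochberg adjusted p = 5.29e-11) and 2.22 ± 0.0803 in H209 against MRC5 (limma, adjusted p = 9.06e-09). SYT1, the calcium sensor of synaptic vesicle release, lies alone in chr12:78540000-79779998 and was at 93.7, 101 and 105 FPKM in DMS153 and 42.3 and 38.0 FPKM in H209, against 4.36, 3.92 and 4.10 FPKM in MRC5. ADCY2, an adenylate cyclase of the nervous system, was at 53.8, 65.1 and 66.0 FPKM in DMS153 and 13.9 and 15.3 FPKM in H209, and at most at 0.0431 FPKM in MRC5. Both genes were highest in DMS153, with no overlap between lines. NFIB, a transcription factor that is amplified in some small cell carcinomas, was at 18.2, 25.7 and 20.5 FPKM in DMS153 and 10.1 and 9.30 FPKM in H209, against 0.0857, 0.0686 and 0.0371 FPKM in MRC5.

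Others of these lone genes were high in the fibroblasts. PAPPA, a protease that cleaves an insulin-like growth factor binding protein, was at 0.281, 0.321 and 0.278 FPKM in DMS153 and 0.114 and 0.570 FPKM in H209, against 74.3, 52.6 and 69.0 FPKM in MRC5. The carcinoma lines overlapped each other and stood far below MRC5. PVRL3, a nectin of cell contacts, was at 2.62, 1.91 and 1.62 FPKM in DMS153 and 5.40 and 4.23 FPKM in H209, against 52.3, 44.2 and 49.8 FPKM in MRC5. NR2F2, a nuclear receptor of mesenchymal cells, was at 7.12, 6.14 and 6.47 FPKM in DMS153 and 17.2 and 18.6 FPKM in H209, against 36.7, 38.4 and 40.9 FPKM in MRC5. For these genes MRC5 was the highest line in every library. In a few domains the carcinoma lines lay on opposite sides of the fibroblasts. XYLT1, a xylosyltransferase that starts proteoglycan chains, was at 6.18, 6.28 and 7.36 FPKM in DMS153 and 0.187 and 0.179 FPKM in H209, against 2.14, 2.24 and 2.16 FPKM in MRC5. It rose in DMS153 (log2 fold change 1.25 ± 0.0809, limma, adjusted p = 3.85e-07) and fell in H209 (-1.43 ± 0.0905, limma, adjusted p = 4.03e-07).

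Genes inside the very large domains were then set against the RNA comparisons. A gene was tested when it reached 1 FPKM in at least 2 of the 8 libraries, 19066 genes in all, and called when the log2 fold change of FPKM + 1 was at least 1 in size and limma gave a Benjamini-Hochberg adjusted p under 0.05. Of 7474 listed genes in very large domains of DMS153 or MRC5, 1560 were tested. In DMS153 against MRC5, 640 of these (41.0%) were higher and 272 (17.4%) lower. Among all genes tested, 34% were higher and 16.4% lower, so the lower share was near that of all genes. The median log2 fold change was 0.65 over these 1560 genes and 0.44 over all genes tested. The share of all calls that were higher was 67.5%, and it was 49.0% when libraries were scaled by median ratios, which moved the median of all genes to 0.00. Of the 1560 genes in very large domains, 484 were then higher and 380 lower, beside 4653 higher and 4849 lower of all 19066 genes tested. Leaving small RNA and mitochondrial genes, which held a larger share of summed FPKM in DMS153, out of the scaling gave 724 higher and 217 lower. Over all 19066 genes tested that scaling gave 7659 higher and 2482 lower. Among protein-coding genes in very large domains of either line, 400 of 1038 were higher (38.5%, against 32.2% of all coding genes tested) and 211 lower (20.3%, against 18.6%).

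In H209 against MRC5, 1832 of 8973 listed genes in very large domains of either line were tested, and 616 (33.6%) were higher and 316 (17.2%) lower. Among all genes tested 33% were higher and 14.9% lower. These shares are near the background and are not a result about the domains. The median log2 fold change was 0.39 over the 1832 genes and 0.46 over all genes. Of all calls in this comparison 68.9% were higher, and 45.3% under median ratio scaling. DMS153 against MRC5 and H209 against MRC5 share the MRC5 libraries. In DMS153 against H209, 1509 of 7233 genes were tested, and 297 (19.7%) were higher and 220 (14.6%) lower, while among all genes 13.8% were higher and 13.4% lower. The share of all calls that were higher was 50.7%, and it was 22.0% when FPKM were rescaled to TPM. With either H209 library left out, the lower count of 220 was 157 or 149, and the lone library was then assumed to vary like the other groups.

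Domains found in only 1 line of a pair were looked at separately. A total of 96 DMS153 domains had no counterpart in MRC5. They held 307 tested genes, of which 119 (38.8%) were higher and 41 (13.4%) lower in DMS153 against MRC5. The 247 MRC5 domains without a counterpart in DMS153 held 815 tested genes, of which 356 (43.7%) were higher and 127 (15.6%) lower in DMS153. Among all genes tested, 34% were higher and 16.4% lower, the same lean. Under quantile normalization the DMS153 domains without a counterpart held 66 higher and 63 lower genes, so the lean there is not a result about the domains. In H209 against MRC5, 195 of 618 genes (31.6%) were higher and 108 (17.5%) lower in the 196 H209 domains without a counterpart. In the 164 MRC5 domains without one, 177 of 533 (33.2%) were higher and 80 (15.0%) lower. Both are near the shares over all genes tested, 33% higher and 14.9% lower. Between the carcinoma lines, the 52 DMS153 domains without a counterpart in H209 held 142 tested genes, of which 22 (15.5%) were higher and 38 (26.8%) lower in DMS153 against H209, beside 13.8% and 13.4% of all genes tested. Of the 38 lower genes, 13 lay in the domain at chr15:83200000-84959998 and 12 in that at chr19:11720000-12799998, so the count rests largely on this pair of domains. The 236 H209 domains without a counterpart in DMS153 held 769, of which 175 (22.8%) were higher and 105 (13.7%) lower. Of the 175 higher genes, 30 lay in the domain at chr14:100840000-102139998. In the MRC5 copy of that domain, 27 of the 30 genes higher in DMS153 against H209 carry small RNA names. Among protein-coding genes of the 236 domains, 92 of 501 (18.4%) were higher, against 11.9% of all coding genes tested.

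Lists of genes by role were placed on the domains. Of 50 neuroendocrine and lung lineage genes, 7 lay in very large domains of DMS153, 10 in those of H209 and 10 in those of MRC5. All 11 tested members in domains of DMS153 or MRC5 were higher in DMS153 than in MRC5, with a median log2 fold change of 4.30. In domains of H209 or MRC5, 12 of 13 were higher in H209, with a median of 3.89. Among all genes tested, 34% were higher in DMS153 and 33% in H209. Of the whole list, 92% reached 1 FPKM in each carcinoma line and 14% in MRC5, so this direction is not particular to the very large domains. NKX2-1, the transcription factor of lung and thyroid epithelium, was at 67.6, 70.0 and 69.4 FPKM in DMS153 and 86.3 and 88.6 FPKM in H209 and was listed at 0 in all MRC5 libraries. ELAVL4, a neuronal RNA-binding protein, was at 61.4, 64.4 and 63.3 FPKM in DMS153 and 36.3 and 39.3 FPKM in H209, and below 0.0001 FPKM in MRC5. PROX1, a homeobox factor, was at 58.5, 65.3 and 61.2 FPKM in DMS153 and 34.2 and 32.1 FPKM in H209, against 0.0587, 0.149 and 0.0656 FPKM in MRC5. ISL1, a homeobox factor of motor neurons and endocrine cells, was at 5.70, 7.66 and 5.27 FPKM in DMS153 and 58.5 and 55.7 FPKM in H209 and was listed at 0 in MRC5. The 3 lines did not overlap for any of these genes. SOX4, a transcription factor of progenitors, was lower in DMS153 than in H209 (log2 fold change -1.79 ± 0.0736, limma, adjusted p = 7.48e-08), at 44.5, 46.8 and 43.6 FPKM in DMS153, against 158 and 156 FPKM in H209.

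Of 50 fibroblast and matrix genes, 5 lay in very large domains of DMS153, 9 in those of H209 and 8 in those of MRC5. All 8 tested members were lower in DMS153 than in MRC5, with a median log2 fold change of -2.93, and all 11 were lower in H209, with a median of -3.18. Among all genes tested, 16.4% were lower in DMS153 and 14.9% in H209. Of the whole list, 96% reached 1 FPKM in MRC5, 52% in DMS153 and 36% in H209, so this direction is not particular to the very large domains. COL12A1, a collagen that associates with collagen fibrils, was at 1.49, 1.15 and 1.39 FPKM in DMS153 and 0.138 and 0.15 FPKM in H209, against 242, 227 and 245 FPKM in MRC5. Its log2 fold change was -6.68 ± 0.0746 in DMS153 against MRC5 (limma, adjusted p = 5.27e-12) and -7.71 ± 0.0835 in H209 against MRC5 (limma, adjusted p = 1.62e-11). VCAN, the proteoglycan versican, was at 6.33, 6.94 and 3.43 FPKM in DMS153 and 0.227 and 0.125 FPKM in H209, against 15.2, 11.1 and 16.2 FPKM in MRC5. The lines kept this order in every library. Outside the list, FST, the activin antagonist follistatin, was at 3.60, 3.33 and 5.23 FPKM in DMS153 and 0.125 and 0.322 FPKM in H209, against 336, 333 and 299 FPKM in MRC5. LPAR1, a receptor for lysophosphatidic acid in an H209 domain, was at 0.773, 0.768 and 0.893 FPKM in DMS153 and 0.130 and 0.0490 FPKM in H209, against 220, 221 and 222 FPKM in MRC5. The direction of both lists was the same under each of the other scalings tried, except that 7 and not 8 fibroblast genes passed as lower in DMS153 when small RNA and mitochondrial genes were left out of the scaling.

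**Figure D5:**
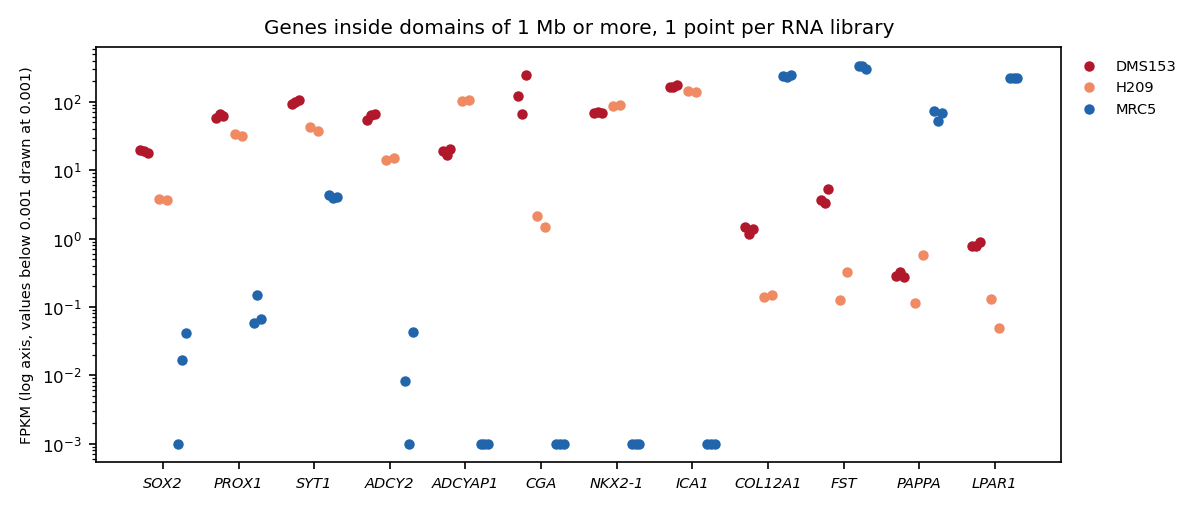
FPKM (log axis, values below 0.001 drawn at 0.001) of 12 genes that lie in domains of 1 Mb or more of at least 1 line, 1 point per RNA library of DMS153, H209 and MRC5. SOX2 to ICA1 are higher in every carcinoma library than in any MRC5 library, and COL12A1 to LPAR1 are lower.

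Neuronal genes were present in the domains and moved both ways. Of 77 neuronal adhesion and synapse organiser genes, 15 lay in very large domains of DMS153, 25 in those of H209 and 23 in those of MRC5. In DMS153 against MRC5, 10 of 23 tested were higher and 7 lower, with 34% and 16.4% over all genes. The balance turned to 8 higher and 9 lower under median ratio scaling and to 6 and 8 under quantile normalization. In H209 against MRC5, 9 of 29 were higher and 12 lower, with 33% and 14.9% over all genes. CNTNAP2, a neurexin-like adhesion molecule, was at 102, 108 and 99.9 FPKM in DMS153 and 53.0 and 57.7 FPKM in H209, and at most at 0.0800 FPKM in MRC5. CDH11, a cadherin of mesenchymal cells that the list also holds, was at 0.311, 0.531 and 0.499 FPKM in DMS153 and 0.0206 and 0.0140 FPKM in H209, against 88.4, 93.0 and 98.3 FPKM in MRC5. The members therefore did not share a direction. Of 64 neuronal channel and transmitter receptor genes, 4 of 7 tested were higher and 1 lower in DMS153 against MRC5, and 7 of 10 were higher and 1 lower in H209 against MRC5. None of the 13 members in very large domains of MRC5 reached 1 FPKM there. Of the whole list, 20.3% reached 1 FPKM in MRC5, 50% in DMS153 and 42.2% in H209. Lower levels in MRC5 are therefore not particular to the very large domains. Of 36 axon guidance genes, 4 of 12 tested were higher and 3 lower in DMS153 against MRC5, near the 34% and 16.4% of all genes, and 4 higher and 5 lower under median ratio scaling. Of the same list, 2 of 12 were higher and 7 lower in H209 against MRC5. SEMA3A, a secreted guidance protein, was at 0.118, 0.127 and 0.120 FPKM in DMS153 and 0.0629 and 0.00311 FPKM in H209, against 29.8, 28.9 and 35.3 FPKM in MRC5.

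Of all 19119 protein-coding genes, 3.32% lay in very large domains of DMS153, 6.63% in those of H209 and 6.16% in those of MRC5. The list of ribosomal protein genes used here holds 41 and not all of them. Of these 41, 1 lay in a very large domain in each line. It was RPS3A, at 677, 744 and 646 FPKM in DMS153 and 605 and 731 FPKM in H209, against 946, 1051 and 942 FPKM in MRC5. RPL15, which the list leaves out, lay in very large domains of DMS153 and H209 and was at 247, 264 and 225.5 FPKM in DMS153 and 215 and 228 FPKM in H209, against 744, 839 and 773 FPKM in MRC5. RPS24, also not on the list, had the highest mean FPKM of the protein-coding genes in the very large domains of each line. Ribosomal protein genes have many near-identical pseudogenes, so these levels are uncertain. Of 39 genes of mitosis and the cell cycle, 1 lay in a very large domain of DMS153, 2 in those of H209 and 4 in those of MRC5, which is 2.56%, 5.13% and 10.3% of the list. All 4 tested were higher in both carcinoma lines than in MRC5, beside 34% of all genes tested in DMS153 and 33% in H209. Of the whole list, 100% reached 1 FPKM in each carcinoma line and 82.1% in MRC5. The 4 genes are not read as a result about the domains. PLK1, a mitotic kinase in an MRC5 domain, was at 56.7, 70.8 and 62.0 FPKM in DMS153 and 48.0 and 50.1 FPKM in H209, against 1.49, 2.81 and 1.59 FPKM in MRC5. Olfactory receptor genes were silent and keratin genes mostly so. None of 401 olfactory receptor genes lay in a very large domain of DMS153, 13 lay in those of H209 and 13 in those of MRC5, and all of these were silent in the line of the domain. Of 257 keratin and skin barrier genes, none lay in a very large domain of DMS153, 66 did in H209, of which 42 were silent and 7 at 1 FPKM or more, and 37 did in MRC5, of which 34 were silent. KRT19, a keratin of simple epithelia in the H209 keratin domain, was at 79.0, 86.0 and 83.8 FPKM in DMS153 and 96.9 and 88.2 FPKM in H209, against 0.288, 0.661 and 0.240 FPKM in MRC5.

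Some very large domains held genes that were called in 1 direction. These cases were picked after their values were seen. Of all calls over all genes, 67.5% were higher in DMS153 against MRC5 and 68.9% in H209 against MRC5, and 49.0% and 45.3% under median ratio scaling. The excess of domains with all genes higher is therefore not read as a result about the domains. Among the 38 MRC5 domains with 5 or more genes called in DMS153 against MRC5, 16 had all of them higher in DMS153 and 1 all lower. Among 22 MRC5 domains with that many calls in H209 against MRC5, 13 had all higher and 1 all lower. Among 12 DMS153 domains all were higher in 3 and lower in 1, and among 27 H209 domains in 9 and 3. The MRC5 domain chr14:36340000-37699998 holds NKX2-1, and 28 of its 32 listed genes were silent in MRC5. H209 placed 1 boundary inside it and DMS153 placed 4. Of 9 tested genes 7 were higher in DMS153 and 8 in H209 than in MRC5, and none was lower. Among all genes tested, 34% were higher in DMS153 and 33% in H209. The median of the 9 genes was 0.0308 FPKM in MRC5, so most could be tested only through the carcinoma libraries. Their direction was thus largely set by the filter and is not read as a result. MBIP averaged 42.5 FPKM in DMS153 and 36.7 in H209, against 10.7 in MRC5, and PAX9, a paired box factor, 2.92 and 2.53, against 0.0308 in MRC5. SFTA3, listed as a noncoding gene in RefSeq, was at 134, 118 and 125 FPKM in DMS153 and 60.3 and 68.9 FPKM in H209 and was listed at 0 in MRC5. NKX2-1 overlaps an antisense gene, and strand is not given in the sources used here, so their reads cannot be told apart.

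The MRC5 domain chr7:6980000-8359998 holds ICA1, an autoantigen of islet cells that binds to secretory membranes. Of its 12 tested genes, 9 were higher in DMS153 and 8 in H209 than in MRC5, and none was lower. ICA1 was at 163, 166 and 178 FPKM in DMS153 and 142 and 139 FPKM in H209, and below 0.001 FPKM in MRC5. GLCCI1 averaged 65.8 FPKM in DMS153 and 32.5 in H209, against 3.76 in MRC5, and RPA3, a subunit of the single-strand DNA-binding protein RPA, 34.2 and 22.3, against 3.77 in MRC5. DMS153 domains covered 8.70% of this domain and H209 domains 44.9%. In the MRC5 domain chr6:24400000-26019998, SCGN, a calcium-binding protein of neuroendocrine cells, was at 121, 115 and 151 FPKM in DMS153 and 15.2 and 14.1 FPKM in H209 and was listed at 0 in MRC5. Of 18 tested genes in it, 8 were higher and 2 lower in DMS153, and 9 higher and none lower in H209. The domain chr5:50240000-51959998 had ISL1 as its only protein-coding gene, and all 18 listed genes were silent in MRC5, the line of the domain. All 5 tested genes there were higher in H209 than in MRC5 and lower in DMS153 than in H209, ISL1 among them. Genes silent in MRC5 could be tested only through carcinoma libraries, so their direction against MRC5 was set by the filter. Of all genes tested, 13.4% were lower in DMS153 against H209.

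The domain on chr14 that holds the imprinted genes DLK1 and MEG3 changed with the genes counted. Of 40 tested genes, 31 were higher and 5 lower in DMS153 against MRC5, but 28 of the 31 carry small RNA names, and of the other 12 tested, 3 were higher and 5 lower. The 28 small RNA genes had a median of 0 FPKM in H209 and in MRC5, so most could be tested only through DMS153 libraries. DLK1, a membrane protein of progenitor cells, was at 119, 92.6 and 165 FPKM in DMS153 and 34.3 and 36.4 FPKM in H209, against 0.242, 0.0805 and 0.101 FPKM in MRC5. MEG3, a noncoding RNA of the same imprinted region, was at 49.7, 51.6 and 62.3 FPKM in DMS153 and 37.7 and 39.7 FPKM in H209, against 578, 521 and 568 FPKM in MRC5. Neighbours in this domain thus differed in opposite directions between the carcinoma lines and the fibroblasts. The zinc finger domain chr19:36800000-38379998 had identical ends in H209 and MRC5, and no domain of DMS153 overlapped it. Of its 28 zinc finger genes tested, 24 were higher and none lower in H209 against MRC5, 2 higher and 10 lower in DMS153 against MRC5, and 20 lower and none higher in DMS153 against H209. Among all genes tested, 33% were higher in H209 against MRC5. In DMS153 34% were higher and 16.4% lower than in MRC5, and 13.4% were lower than in H209. Over the other scalings the 24 ranged from 6 under quantile normalization to 26 under TPM, and the 20 from 19 to 27.

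Some genes in very large domains differed widely between the carcinoma lines. CGA, the common alpha subunit of the pituitary glycoprotein hormones, was at 121, 66.6 and 244 FPKM in DMS153 and 2.15 and 1.46 FPKM in H209 and was listed at 0 in MRC5. ADCYAP1, the neuropeptide PACAP, was at 19.1, 17.0 and 20.1 FPKM in DMS153 and 102 and 107 FPKM in H209 and was also listed at 0 in MRC5. The lines did not overlap for either gene, and the carcinoma lines took opposite orders. ST6GAL2, a sialyltransferase, was at 24.1, 23.2 and 26.0 FPKM in DMS153, against 0.0176 and 0.266 FPKM in H209. Its log2 fold change in DMS153 against H209 was 4.48 ± 0.106 (limma, adjusted p = 2.67e-09). RIT2, a neuronal GTPase, had the opposite order, with 0.0464, 0.0162 and 0.173 FPKM in DMS153, against 11.3 and 17.6 FPKM in H209. CETN3, a centrin of the centriole in a DMS153 domain, was at 20.0, 20.4 and 15.7 FPKM in DMS153, against 0.0437 and 0.000473 FPKM in H209, with 21.6, 20.1 and 21.1 FPKM in MRC5. H209 was thus the only one of the 3 lines that lacked CETN3 at 1 FPKM. RET, a receptor kinase of neural crest cells, was at 14.5, 12.6 and 14.9 FPKM in DMS153, against 0.0612 and 0.0296 FPKM in H209.

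Promoter windows were compared between the genes that were expressed and silent in the domains. Of 1828 protein-coding genes in a very large domain of at least 1 line, 1517 matched a promoter window of 300 bases in RefSeq (GRCh38.p14), and 1 window was used per gene. Over genes at 1 FPKM or more in the very large domains, the median GC content was 64.2% in DMS153, 64.0% in H209 and 63.7% in MRC5. Over the silent ones it was 55.0%, 50.2% and 52.7% in the same lines, and over all 27305 windows 58.3%. CG pairs followed the same order. Their observed number over the number that base composition gives had a median of 0.84 among expressed genes in DMS153, 0.83 in H209 and 0.84 in MRC5, against 0.50, 0.34 and 0.49 among silent ones. In shorter domains the median was 0.84 for expressed genes in each line, so expressed genes of both kinds of domain were alike within 0.01. Silent genes of shorter domains had lower medians than those of very large ones, 0.28 in DMS153, 0.26 in H209 and 0.34 in MRC5. The letters TATAAA, sought on both strands in the 250 bases before the start, were in 4.87%, 6.11% and 5.04% of the windows of expressed genes in the very large domains of DMS153, H209 and MRC5. They were in 8.96%, 28.3% and 17.3% of those of silent genes, against 21.1%, 19.5% and 18.1% of those of silent genes in shorter domains of the same lines. All windows had 11.1%. The silent genes of very large domains were thus below those of shorter domains in DMS153 and above them in H209. Their shares rest on 67 windows in DMS153, 230 in H209 and 335 in MRC5. Very large domains of H209 held 42 silent keratin and skin barrier genes and those of DMS153 none, and their part in these shares was not tested. These are matches of letters, and nothing about the binding of a factor was measured.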

How the data were processed

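Domain lists of 1 Hi-C library per line and gene tables of 8 RNA-seq libraries were used as deposited. Build hg19 and the tools HOMER 4.8, Cufflinks 2.2.0, TopHat2 2.1.0 and Bowtie2 are listed, with no role, per the submitters' processing notes. Nothing used here states RNA selection, strand or read depth. Coordinates are hg19, written from 1, except promoters. The deposited domain files give ends and a score per domain, whose meaning is not given. The deposited gene files give FPKM with an interval, per the file headers. Of 57815 listed genes, 57236 lay off chromosome Y and the mitochondrial genome, and 56.9% of these matched RefSeq by name or ID, 19119 as protein-coding.

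From these values, log2(FPKM + 1) of genes at 1 FPKM or more in at least 2 libraries was fitted with limma 3.58.1 (R 4.3.3) over all 8 libraries, with a trend in the variance and Benjamini-Hochberg adjustment over all 19066 genes. Python 3.11.15, pandas 2.3.3, numpy 2.4.6, scipy 1.17.1 and matplotlib 3.10.9 were used for the rest. The limma step was tested on simulated data. Fold changes on this scale understate those of low genes. The domains, genes and lists were chosen with earlier results of these data known. Named domains were the 5 longest per line, up to 6 shared by all lines and the 3 per line with most genes. Named genes were the 8 highest per line, those at 5 FPKM or more in the longest domains, in each comparison the 6 called genes at either end of the fold changes and up to 2 called members of each list, and a selection of these is printed. The single-gene and direction cases lie outside the rule. Of 136 genes so considered, 95 overlap another listed gene, so reads of both could be mixed. Alternatives covered lengths, overlaps, scaling, filters, pseudocounts and left-out libraries.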

Additional observations from a re-analysis of the deposited data

Results flagged for a closer look

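In 4 zinc finger genes of very large domains, the carcinoma lines lay on opposite sides of MRC5, and the difference between them was itself tested as DMS153 against H209 with limma. ZNF382 fell in DMS153 and rose in H209 against MRC5, with log2 fold changes of -1.07 and 2.47, and the difference between the carcinoma lines was -3.54. ZNF844 showed -1.72 in DMS153 and 1.75 in H209 against MRC5, with a difference of -3.47. ZNF568 showed -1.98 and 1.44, with a difference of -3.42. ZNF608 had the opposite pattern, with 1.07 in DMS153 and -1.01 in H209 against MRC5 and a difference of 2.07.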

How the results depend on the processing

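No call on a named gene changed sign under the alternatives run. The balance of calls in very large domains did turn. In H209 against MRC5 it was 414 higher and 463 lower under median ratio scaling and 392 and 401 under quantile normalization. Over all 19066 genes tested it was 3905 and 4724 under median ratio scaling and 4086 and 3800 under quantile normalization. In DMS153 against H209 it was 235 higher and 472 lower in the domains under TPM scaling, and 1782 and 6319 over all genes tested. Of 3927 alternative values of the calls on named genes, 3874 kept the call and 53 lost it, in 30 of the calls. The number of very large domains in DMS153 was 397 from 800 kb and 158 from 1.2 Mb, and domains above the median score of their line numbered 123 in DMS153, 243 in H209 and 177 in MRC5. Genes per Mb were 10.1, 10.4 and 10.7 in DMS153, H209 and MRC5 with the whole locus inside, 11.2 and 11.4 in H209 and MRC5 with any overlap, 1.91, 2.07 and 2.11 for protein-coding genes and 3.59, 3.78 and 3.93 without unnamed clones and small RNA.

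The silent share in very large minus shorter domains, over all genes, is given in percentage points for a limit of 0 FPKM, 0.5 FPKM and 1 FPKM, then for any overlap, the whole locus, a minimum of 800 kb and of 1.2 Mb. DMS153 gave 9.72, 12.6, 11.4, 14.6, 11.1, 15.0 and 12.8. H209 gave 13.7, 14.0, 13.2, 16.9 and 13.6 for the first 5 settings and MRC5 15.2, 14.4, 13.2, 18.2 and 15.2, with 18.0 in MRC5 from 1.2 Mb. For protein-coding genes, DMS153 gave -3.13, -6.17, -5.78, -5.35, -10.1, -3.62 and -7.51, and H209 0.934, 4.73, 5.34, 3.91, 1.38, 4.85 and 1.88. MRC5 gave 3.44, 7.29 and 7.78 for the FPKM limits, 6.59 for the whole locus, 9.21 from 800 kb and 11.1 from 1.2 Mb.

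Quantile normalization left 424 higher genes in DMS153 against MRC5 and 392 in H209 against MRC5, and a minimum of 5 FPKM left 404 in H209. From 1.2 Mb, 206 were lower in H209. In DMS153 against H209, 131 were lower from 5 FPKM and 472 under TPM scaling. In DMS153 domains without a counterpart in MRC5, 75 were higher under median ratio scaling and 66 under quantile normalization, where 63 were lower. In MRC5 domains without one in DMS153, 193 were lower under median ratio scaling. In H209 domains without one in MRC5, 129 were higher under median ratio scaling and 126 under quantile normalization, and 65 lower at an overlap of 50%. In MRC5 domains without one in H209, 102 were higher and 40 lower at 50%, 113 higher under quantile normalization and 126 lower under median ratio scaling. Over all 19066 genes tested, lower calls in DMS153 against MRC5 went from 3123 to 4849 under median ratio scaling. In H209 against MRC5 they went from 2839 to 4724, and higher calls from 6300 to 3905. Lower calls in DMS153 against H209 went from 2547 to 6319 under TPM scaling. Shifts of the domain counts under these scalings are thus not read as results about the domains. The causes were not tested.

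Leaving out each library gave 623 to 641 higher and 266 to 273 lower genes in DMS153 against MRC5, 526 to 616 and 308 to 318 in H209 against MRC5, and 277 to 296 and 149 to 222 in DMS153 against H209. In domains without a counterpart it gave 115 to 121 and 40 to 43 in those of DMS153, 339 to 356 and 125 to 131 in those of MRC5 set against DMS153, 168 to 195 and 102 to 108 in those of H209, and 148 to 178 and 75 to 82 in those of MRC5 set against H209. With the replicate number as a block, 640 were higher and 272 lower in DMS153 against MRC5, 614 and 309 in H209 against MRC5, and 290 and 214 in DMS153 against H209. Deviations of same-numbered libraries correlated at -0.0118 to 0.123, and those of differently numbered ones at -0.123 to 0.0541. With 2 or 3 libraries per line these values cannot settle whether the numbers pair the samples. The deposited intervals are wide near 0.1 FPKM, and the depth is unknown.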
